A study of Sus scrofa with 9 samples.

Results

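Heat shock proteins and J-domain chaperones were examined in back muscle (longissimus dorsi) of finishing pigs fed different amounts of lysine. The group holds each gene whose platform symbol begins with HSPA, HSPB, HSPD, HSPE, HSPH, HSP90, DNAJA, DNAJB or DNAJC, together with the HSP90 co-chaperones CHORDC1 and CACYBP, and leaves out HSPBP1 and HSPBAP1. It came to 58 genes of 12217 with a single symbol. They were measured by 59 of 27558 probe sets, where a probe set is the group of array probes summarised as 1 value, and HSPA8 alone had more than 1. For each gene the probe set with the highest mean over the 9 arrays was used. The platform lists DNAJB6 under the symbol DNAJB7, and its Entrez gene ID gave the current name. HSPA1A, HSPA1B, HSP90AA1, HSP90B1 and DNAJC3 are not analysed here.

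The 9 pigs were males of about 95 kg at the start. For 5 weeks, 3 pigs ate a lysine-deficient diet (pigs 1, 2 and 3), 3 a lysine-adequate diet (pigs 5, 6 and 7) and 3 a lysine-excess diet (pigs 9, 10 and 11), set against the published requirement for swine. Muscle was taken at slaughter from between ribs 10 and 12, and RNA from each pig was hybridised to its own whole-transcript GeneChip array. Values are on a log scale, taken as log2 from their range, on which a difference of 1 is 2-fold, and levels of different genes cannot be compared because their probes differ.

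Chaperones bind unfolded or partly folded proteins and keep them from aggregating. HSP70 proteins do so in cycles of ATP hydrolysis that J-domain proteins stimulate, HSP110 proteins reset the cycle by exchanging nucleotide, and HSP90 with its co-chaperones acts later on a narrower set of clients. Small heat shock proteins hold unfolded proteins without ATP and are abundant in striated muscle, where they associate with the contractile filaments, while separate HSP70, HSP60 and J-domain proteins serve the mitochondria and the endoplasmic reticulum.

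One array, that of excess pig 11, was unlike the rest: it correlated with each of them at 0.904 to 0.956, and its SD over all probe sets was 1.82, against 1.93 to 1.99 on the others. The array quality weights that limma gave were lowest in the excess diet, where pig 10 had 0.192, pig 11 had 0.22 and pig 9 had 0.678, while the other 6 arrays had 0.902 to 2.46. Pig 10 had the lowest SD after pig 11, 1.928, just below the 1.937 to 1.992 of the remaining arrays. Its correlations lay within the range of the others. Of the 4210 probe sets with a mean of at least 8, a level chosen after the data were examined, 74.9% had a higher mean in deficient than in excess pigs with pig 11 and 49.1% without it. The counts for deficient against excess pigs, and the differences of the genes described there, are therefore given with and without pig 11. The skeletal muscle markers ACTA1, MYH1, MYH7, MYLPF and TNNC2 averaged between 12.8 and 13.0 in every pig. No scan date or other batch is given in the sources used here.

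With all pigs, the largest median difference over the chaperones lay between the ends of lysine supply, with deficient pigs higher by 0.15. The median was -0.13 for excess minus adequate pigs and 0.06 for deficient minus adequate pigs. Without excess pig 11 the median between deficient and excess pigs was 0.05, so this ranking of the whole group depends on that pig. DNAJA1, CHORDC1, CACYBP and HSPH1 had the smallest p-values between deficient and excess pigs. Their means were 1.5 to 2.30-fold higher in deficient than in excess pigs, and adequate pigs lay between. HSPA4, HSP90AB1, DNAJB4, DNAJA2, HSPB8, HSPD1, HSPB1, HSPA5, DNAJA4 and HSPA8 were higher in deficient pigs by 0.16 (HSPA8) to 0.80 (DNAJA4), and HSPB6 was lower, each at an unadjusted p under 0.05. No gene passed an adjusted p of 0.05 over all probe sets in any comparison (limma with Benjamini-Hochberg adjustment), nor did any other probe set (0.0%), so the counts below use an unadjusted p under 0.05 and describe direction and size. The comparisons share pigs with each other, so a gene's values in them are not independent. CHORDC1 and CACYBP entered the group by name, and the genes were chosen with earlier results of these data known. The shares of the group given below are therefore not independent of these data.

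**Figure D1:**
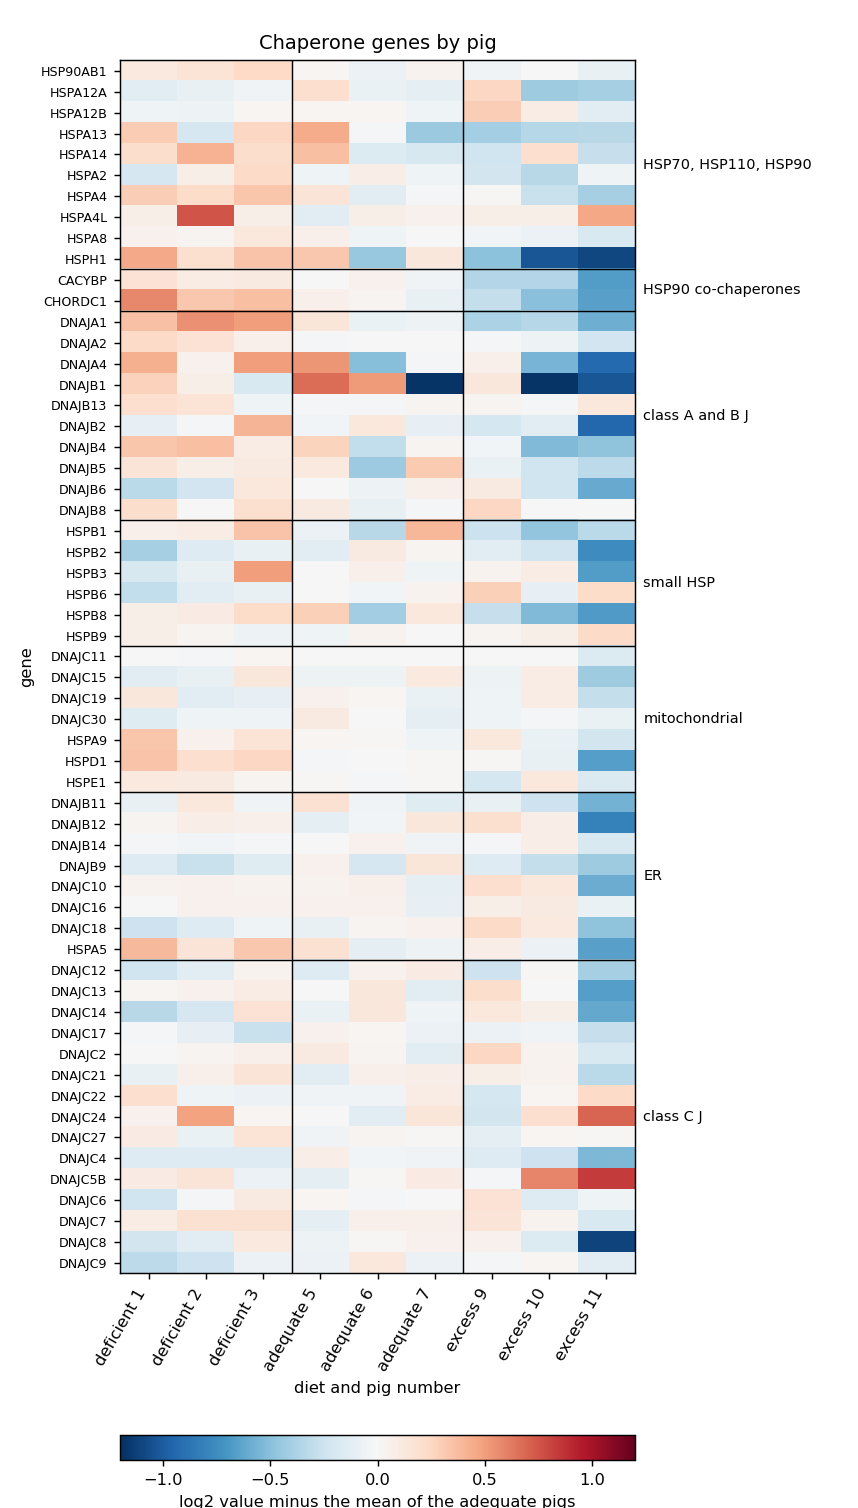
Each cell is the log2 value of 1 chaperone gene (vertical axis, grouped by role) in 1 pig (horizontal axis, by diet), minus that gene's mean over the 3 adequate pigs; red is higher and blue is lower. DNAJA1 and CHORDC1 are red in the 3 deficient pigs and blue in the 3 excess pigs, and the column of excess pig 11 is blue for many genes, being the lowest of the 9 pigs for 37 of 58.

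Between deficient and excess pigs, 14 of the 58 genes (24.1%) were higher in deficient pigs at an unadjusted p under 0.05 and 1 was lower, where 2.84% of all probe sets were higher and 1.23% lower. In 18 genes (31.0%) every deficient pig lay above every excess pig, against 4.28% of all probe sets, and in 0 did every deficient pig lie below, against 2.19%. Without pig 11, a setting added to these counts after the data were examined that leaves 2 excess pigs to separate from, they were 19 and 6, against 7.13% and 6.46%. The median difference over the 58 genes was 0.15, against 0.00 over all probe sets, with 48 genes higher and 10 lower, beside 50.0% higher over all probe sets. In 14 of the 28 genes with a mean of at least 8 (50.0%) every deficient pig lay above every excess pig, against 11.8% of all probe sets at such levels. Of those 28 genes, 13 (46.4%) were higher at an unadjusted p under 0.05, against 8.53% of such probe sets, and 12 were without pig 11, against 5.23%. Without pig 11, 13 genes were higher and 2 lower, against 2.09% and 1.62% of probe sets, and the median difference was 0.05, with 35 genes higher and 23 lower, where 50.8% and 49.2% of probe sets were. The 2 lower genes, singled out after their values were seen, were HSPA12B and DNAJC18.

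Some markers of other cells also differed between diets, though not all in the same comparison. Of 6 adipocyte markers, PLIN1, CIDEC, CFD and LIPE were higher in deficient than in excess pigs at an unadjusted p under 0.05. They were so with pig 11 and without it, where 2.84% and 2.09% of all probe sets were, while LEP and PLIN4 were not. The mean level of the 6 ran from 6.27 to 6.65 in deficient, 6.01 to 6.37 in adequate and 5.82 to 5.98 in excess pigs. All 9 fibroblast and matrix markers had lower means in deficient and in excess than in adequate pigs, with mean levels of 9.18 to 9.64, 8.94 to 9.53 and 9.70 to 10.13. Among all probe sets with a mean of at least 8, 53.3% and 82.7% had such lower means. Without pig 11, which gave the 8.94, all 9 were still lower in excess pigs, where 54.1% of those probe sets were. Between deficient and excess pigs, 6 of the 9 had higher means and 3 lower, and 0 reached an unadjusted p under 0.05. Of those probe sets, 74.9% had higher means in deficient than in excess pigs. The part of either cell type in the chaperone differences was not tested, and in whole muscle fewer cells of a type and less RNA per cell cannot be told apart.

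DNAJA1 is a class A J-domain protein of the cytosol that delivers clients to HSP70 and stimulates its ATPase. Its log2 value was 10.11, 10.30 and 10.26 in deficient pigs 1, 2 and 3, 9.90, 9.67 and 9.69 in adequate pigs 5, 6 and 7, and 9.37, 9.41 and 9.17 in excess pigs 9, 10 and 11. The 3 diets did not overlap, and excess pig 11 lay close to the other excess pigs. The difference between deficient and excess pigs was 0.90 ± 0.10 (SE, n = 3 and 3), or 1.87-fold (limma, unadjusted p = 2.31e-05, adjusted p = 0.319), and 0.83 without pig 11. Against adequate pigs, deficient pigs were 0.47 ± 0.10 higher (adjusted p = 1.0) and excess pigs differed by -0.44 ± 0.10 (adjusted p = 0.757).

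CHORDC1 encodes a zinc-binding co-chaperone of HSP90. It measured 10.17, 9.92 and 9.95 in deficient pigs, 9.65, 9.63 and 9.50 in adequate pigs and 9.31, 9.09 and 8.94 in excess pigs, again with no overlap among the diets. Deficient pigs exceeded excess pigs by 0.90 ± 0.11, or 1.87-fold (limma, unadjusted p = 5.32e-05, adjusted p = 0.489), and by 0.82 without pig 11. The difference was 0.42 ± 0.11 from adequate to deficient and -0.48 ± 0.11 from adequate to excess.

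CACYBP binds calcyclin and the ubiquitin ligase SIAH1 and shares with HSP90 co-chaperones a domain of the CS type. Its values were 8.58, 8.50 and 8.52 in deficient pigs, 8.40, 8.46 and 8.37 in adequate pigs and 8.06, 8.06 and 7.74 in excess pigs. Deficient and adequate pigs lay within a narrow band, separate from each other by little, and all 3 excess pigs lay below it. The difference from adequate to excess was -0.46 ± 0.09 (-0.35 without pig 11), against 0.12 ± 0.09 from adequate to deficient. Deficient pigs stood 0.58 ± 0.09, or 1.5-fold, above excess pigs (limma, unadjusted p = 3.14e-04, adjusted p = 0.872), and 0.48 above them without pig 11.

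DNAJA2, the other widespread class A protein, completed the 4 genes (6.90%) whose diets were ordered deficient, adequate, excess without overlap, against 0.185% of all probe sets, and without pig 11 the count was also 4, against 0.265%. The values were 9.85, 9.79 and 9.68 in deficient pigs, 9.61, 9.63 and 9.63 in adequate pigs and 9.61, 9.56 and 9.39 in excess pigs. The lowest adequate pig lay 0.00036 above the highest excess pig, and no minimum gap was set, so without DNAJA2 the ordered genes are 3. Of those 3, CHORDC1 and CACYBP are in the group by name and not by the start of their symbol. Deficient pigs were 0.26 ± 0.08 above excess pigs, 0.19 without pig 11 and 0.17 after another quantile normalization.

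**Figure D2:**
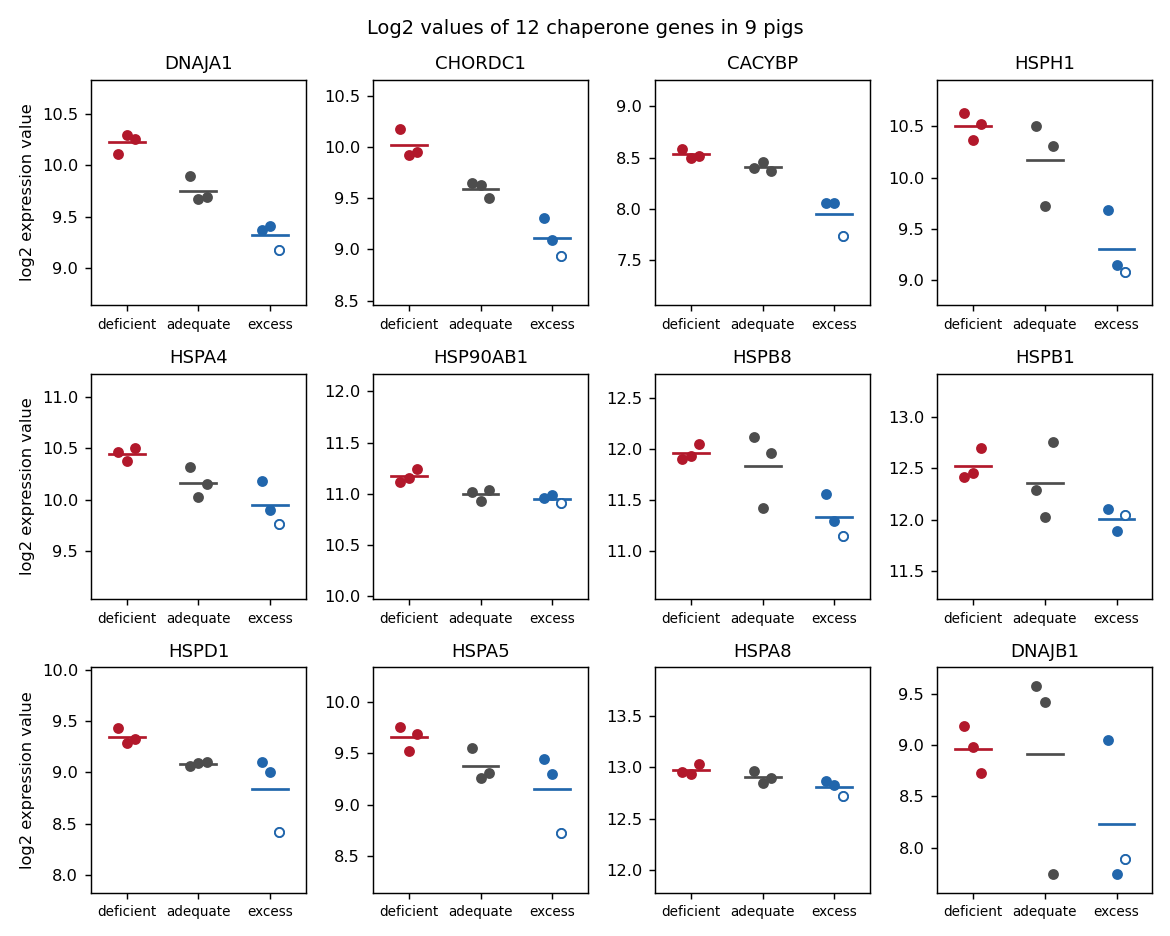
Log2 expression values (vertical axes, each spanning the same range) of 12 chaperone genes in deficient, adequate and excess pigs; each point is 1 pig, open for excess pig 11, and bars are diet means. DNAJA1, CHORDC1 and CACYBP step down from deficient to adequate to excess with no overlap, while DNAJB1 has an adequate and 2 excess pigs between 7.74 and 7.89.

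Among the HSP70, HSP110 and HSP90 families, with HSPA9 of mitochondria and HSPA5 of the endoplasmic reticulum left to their compartments, 9 of 10 genes had higher means in deficient than in excess pigs and 4 did so at an unadjusted p under 0.05, with pig 11 or without it, HSPA2 taking the place of HSPA8 in the second count; over all probe sets the shares were 2.84% and 2.09%. HSPH1 encodes HSP110, the nucleotide exchange partner of cytosolic HSP70. It read 10.63, 10.37 and 10.52 in deficient pigs, 10.50, 9.72 and 10.31 in adequate pigs and 9.68, 9.15 and 9.08 in excess pigs. Every excess pig lay below every other pig, while deficient and adequate pigs overlapped through adequate pig 5. The difference of 1.2 ± 0.23 between deficient and excess pigs, 2.30-fold, was the largest among the 58 genes (limma, unadjusted p = 9.17e-04, adjusted p = 0.872), and it was 1.09 without pig 11. Excess pigs differed from adequate pigs by -0.87 ± 0.23.

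HSPA4, another HSP110 family member, measured 10.46, 10.38 and 10.50 in deficient pigs, 10.32, 10.03 and 10.15 in adequate pigs and 10.18, 9.90 and 9.76 in excess pigs. The deficient pigs lay above the other 6, which overlapped. Deficient pigs were 0.50 ± 0.12 above excess pigs (0.41 without pig 11) and 0.28 ± 0.12 above adequate pigs.

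HSP90AB1 is the constitutive cytosolic HSP90. Its values were 11.12, 11.16 and 11.24 in deficient pigs, 11.02, 10.93 and 11.04 in adequate pigs and 10.96, 10.99 and 10.91 in excess pigs. The spread within diets was the smallest of the 58 genes, a pooled SD of 0.053, and the deficient pigs were apart from the rest. Their mean was 0.22 ± 0.06 above excess pigs (0.20 without pig 11) and 0.17 ± 0.06 above adequate pigs, or 1.17-fold and 1.13-fold.

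HSPA8, the constitutive cytosolic HSP70, differed little. It read 12.95, 12.93 and 13.03 in deficient pigs, 12.96, 12.85 and 12.90 in adequate pigs and 12.87, 12.83 and 12.72 in excess pigs. Deficient pigs lay above excess pigs without overlap, by 0.16 ± 0.07 (limma, unadjusted p = 0.0444), and by 0.12 without pig 11, where it missed 0.05. Its second probe set gave 0.15 ± 0.07 (limma, unadjusted p = 0.0557). The other relatives of these families, HSPA2, HSPA4L, HSPA12A, HSPA12B, HSPA13 and HSPA14, did not reach an unadjusted p of 0.05 with all 9 pigs.

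All 10 class A and B J-domain genes of the cytosol and nucleus had higher means in deficient than in excess pigs, 4 of them at an unadjusted p under 0.05, and without pig 11 the counts were 9 and 3, where 2.84% and 2.09% of all probe sets were higher at that p. DNAJB4 encodes a class B partner of HSP70 that is abundant in heart and skeletal muscle. It measured 11.05, 11.08 and 10.81 in deficient pigs, 10.98, 10.42 and 10.75 in adequate pigs and 10.68, 10.19 and 10.23 in excess pigs. Deficient pigs lay above excess pigs by 0.61 ± 0.18 (0.55 without pig 11), and adequate pigs spanned most of the range between.

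DNAJA4 varied widely within diets, with 7.72, 7.34 and 7.79 in deficient pigs, 7.82, 6.78 and 7.27 in adequate pigs and 7.35, 6.73 and 6.36 in excess pigs. The difference of 0.80 ± 0.32 between deficient and excess pigs was 0.57 without pig 11 (limma, unadjusted p = 0.127) and 0.51 with array quality weights. DNAJB1, the main heat-inducible J-domain protein, had the largest spread within diets of all 58 genes, a pooled SD of 0.731. Its values were 9.19, 8.98 and 8.73 in deficient pigs, 9.58, 9.42 and 7.74 in adequate pigs and 9.05, 7.74 and 7.89 in excess pigs. Adequate pig 7 and excess pigs 10 and 11 were low and the other 6 were high, so the diets overlapped, and the difference between deficient and excess pigs was 0.74 ± 0.53 (limma, unadjusted p = 0.203), and 0.57 without pig 11.

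Small heat shock proteins did not share a direction. HSPB1, which encodes HSP27, measured 12.42, 12.45 and 12.70 in deficient pigs, 12.29, 12.03 and 12.76 in adequate pigs and 12.10, 11.89 and 12.04 in excess pigs. HSPB8, a partner of BAG3 in the selective autophagy of damaged muscle proteins, measured 11.90, 11.93 and 12.05, then 12.12, 11.42 and 11.96, then 11.56, 11.30 and 11.15 in the same order. In both genes each deficient pig lay above each excess pig and the adequate pigs spread across the range. The differences between deficient and excess pigs were 0.52 ± 0.18 for HSPB1 and 0.62 ± 0.19 for HSPB8, and both were 0.53 without pig 11.

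HSPB6, which encodes HSP20, ran the other way, at 10.71, 10.87 and 10.91 in deficient pigs, 11.00, 10.97 and 11.04 in adequate pigs and 11.29, 10.90 and 11.22 in excess pigs. All deficient pigs lay below all adequate pigs, but excess pig 10 fell among the deficient pigs. The difference of deficient minus excess pigs was -0.30 ± 0.11 (limma, unadjusted p = 0.0256), and -0.26 without pig 11, where it missed 0.05. Of the 6 small heat shock genes, 4 were higher and 2 lower in deficient than in excess pigs, and the median turned from 0.20 to -0.01 without pig 11.

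**Figure D3:**
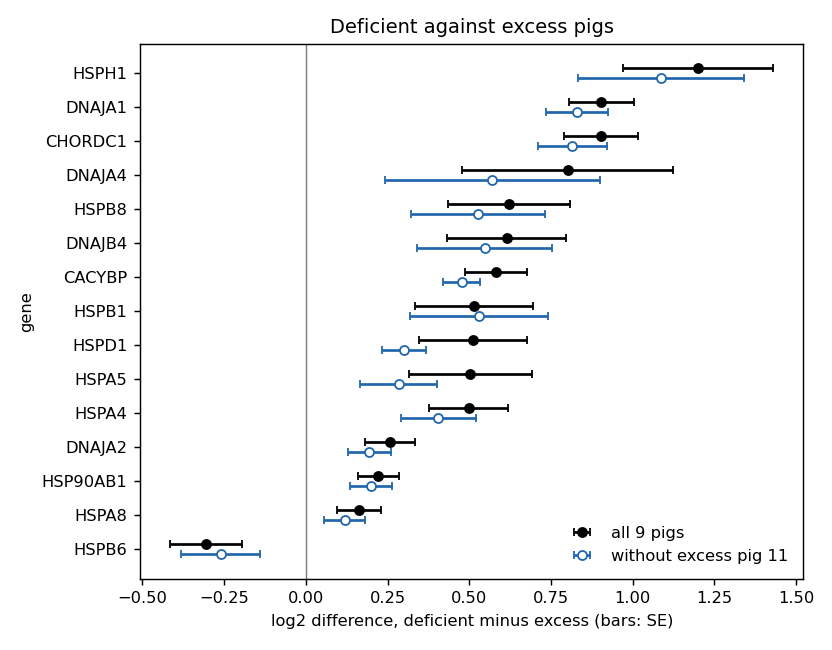
Log2 difference of deficient minus excess pigs (horizontal axis) for the 15 chaperone genes (vertical axis) with an unadjusted p under 0.05, with all 9 pigs (filled) and without excess pig 11 (open); bars are SE. Each gene keeps its direction without pig 11, and the largest relative shortening is in HSPA5 and HSPD1.

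In mitochondria HSPD1 (HSP60) and HSPE1 (HSP10) form the folding chamber and HSPA9 drives protein import. HSPD1 read 9.43, 9.29 and 9.33 in deficient pigs, 9.06, 9.09 and 9.10 in adequate pigs and 9.10, 9.00 and 8.42 in excess pigs. The deficient pigs lay above all others, excess pigs 9 and 10 lay close to the adequate pigs, and excess pig 11 was far lower. The difference between deficient and excess pigs was 0.51 ± 0.16, and 0.30 ± 0.07 without pig 11 (limma, unadjusted p = 0.00305).

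HSPE1 measured 10.74, 10.73 and 10.66 in deficient pigs, 10.64, 10.60 and 10.64 in adequate pigs and 10.41, 10.75 and 10.45 in excess pigs. HSPA9 measured 10.57, 10.28 and 10.40, then 10.26, 10.25 and 10.18, then 10.36, 10.15 and 10.01 in the same order. For both, each deficient pig lay above each adequate pig and the excess pigs overlapped the deficient ones, with neither reaching an unadjusted p of 0.05 there. The differences between deficient and excess pigs were 0.17 ± 0.09 for HSPE1 and 0.25 ± 0.11 for HSPA9, or 0.13 and 0.16 without pig 11. Of the 7 mitochondrial genes, 6 had higher means in deficient than in excess pigs, but 3 did without pig 11.

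In the endoplasmic reticulum, HSPA5 (BiP) is the main HSP70. It read 9.76, 9.52 and 9.69 in deficient pigs, 9.55, 9.26 and 9.31 in adequate pigs and 9.45, 9.30 and 8.72 in excess pigs. Deficient pigs lay above excess pigs, and excess pigs 9 and 10 lay within the adequate range. The difference of 0.50 ± 0.19 was 0.28 ± 0.12 without pig 11 (limma, unadjusted p = 0.0471).

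DNAJB9, a J-domain partner of BiP that is induced by misfolded protein in this compartment, did not follow HSPA5. It measured 9.01, 8.90 and 9.02 in deficient pigs, 9.22, 8.97 and 9.31 in adequate pigs and 9.01, 8.88 and 8.74 in excess pigs. Adequate pigs 5 and 7 were the highest, and deficient and excess pigs overlapped. Excess pigs differed from adequate pigs by -0.29 ± 0.11 (limma, unadjusted p = 0.0284), or -0.22 without pig 11, where it missed 0.05, and -0.18 after another quantile normalization. Of the 8 genes of this compartment, 7 were higher in deficient than in excess pigs with pig 11 and 3 without it.

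None of the 15 class C J-domain genes of the cytosol and nucleus, a class joined by the J domain alone, differed between deficient and excess pigs at an unadjusted p under 0.05, and the median difference was 0.02, or -0.03 without pig 11. DNAJC4 had 5.79 in each deficient pig, 6.02, 5.91 and 5.90 in adequate pigs and 5.79, 5.69 and 5.40 in excess pigs. The value 5.79 was the same on 4 arrays, those of all deficient pigs and of the highest excess pig. Values shared by more than 1 array occurred in 41.29% of all probe sets and 37.93% of the chaperone genes. Their cause was not tested. The spread of 0.0 among deficient pigs enters the pooled spread behind the p-values of DNAJC4. The adequate pigs of DNAJC4 lay above the other 6, and excess pigs differed from them by -0.32 ± 0.10 (-0.20 without pig 11). DNAJC5B, whose relative DNAJC5 guards synaptic vesicle proteins, was the 1 gene higher in excess than in adequate pigs at that p.

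DNAJC5B measured 4.37, 4.43 and 4.20 in deficient pigs, 4.16, 4.29 and 4.37 in adequate pigs and 4.26, 4.86 and 5.11 in excess pigs. Excess pig 9 lay among the others and pigs 10 and 11 above them, so the 0.47 ± 0.20 from adequate to excess was 0.29 without pig 11 and 0.71 without pig 9. DNAJC9, a histone-binding J-domain protein, measured 4.69, 4.75 and 4.93 in deficient pigs, 4.93, 5.13 and 4.93 in adequate pigs and 4.99, 5.02 and 4.87 in excess pigs, and its diets overlapped or touched. The means of both genes over the 9 pigs lay below 5.07, the median of all values, as did those of 12 of the 58 in all, and signal over background was not tested.

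Measured against adequate pigs, the deficient diet gave 4 genes (6.90%) that were higher at an unadjusted p under 0.05, DNAJA1, CHORDC1, HSP90AB1 and HSPA4, and 0 that were lower, where 0.842% of all probe sets were higher and 1.01% lower. In 10 genes (17.2%) every deficient pig lay above every adequate pig, against 3.77% of all probe sets. These were CACYBP, CHORDC1, DNAJA1, DNAJA2, DNAJC7, HSP90AB1, HSPA4, HSPA9, HSPD1 and HSPE1. By means alone 38 genes were higher and 20 lower, beside 52.9% higher over all probe sets. In DNAJC4 and HSPB6 every deficient pig lay below, against 3.07%. In the limma fit, pig 11 enters this comparison through the shared estimate of spread alone. Whether its array was normalized together with the others is not given in the sources used here. Without pig 11, 8 genes were higher and 2 lower, against 1.63% and 1.91%.

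Between excess and adequate pigs, 7 genes (12.1%) were lower in excess pigs at an unadjusted p under 0.05, CACYBP, DNAJA1, CHORDC1, HSPH1, DNAJC4, DNAJB9 and HSPB8, where 2.21% of all probe sets were lower, and 1 was higher, where 1.35% were. In 7 genes every excess pig lay below every adequate pig, against 3.84% of all probe sets, namely CACYBP, CHORDC1, DNAJA1, DNAJA2 (by 0.00036), DNAJB2, DNAJC4 and HSPH1, and without pig 11 these and HSPA2 did, against 6.36%. The median difference was -0.13, with 46 of 58 genes lower, where 49.8% of all probe sets were. Among the 28 genes with a mean of at least 8, 25 were lower, where 82.7% of all such probe sets were, and 20 were without pig 11, where 54.1% were. Without pig 11, 5 genes were lower, CACYBP, DNAJA1, CHORDC1, HSPH1 and DNAJC4, against 1.26% of probe sets, 1, HSPA12B, was higher, against 1.18%, and the median was -0.04, with 24 genes higher and 34 lower, beside 51.2% and 48.8% over all probe sets.

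**Figure D4:**
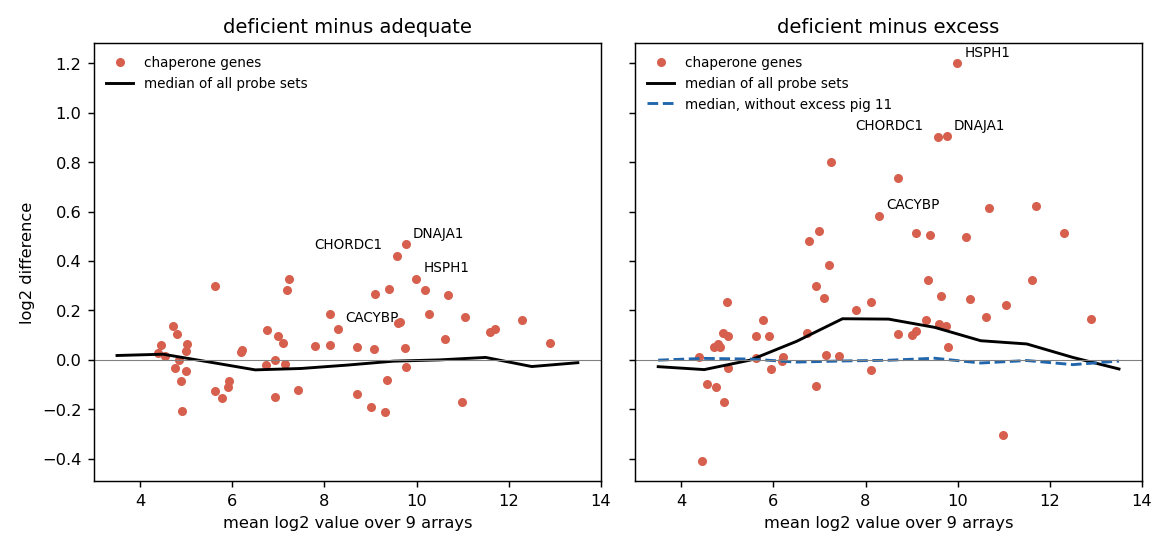
Log2 difference (vertical axes) against mean log2 value over 9 arrays (horizontal axes) for the 58 chaperone genes (points), deficient minus adequate at left and deficient minus excess at right; lines are medians of all probe sets by level, dashed without excess pig 11. Against excess pigs the median of all probe sets reaches 0.17 between levels 7 and 8 and is -0.0049 there without pig 11. All points include pig 11, also beside the dashed line. DNAJA1, CHORDC1 and HSPH1 lie far above both lines, and without pig 11 their differences are 0.83, 0.82 and 1.09.

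A test for any difference among the diets gave 11 of the 58 genes (19.0%) at an unadjusted p under 0.05, against 2.54% of all probe sets, and 0 at an adjusted p of 0.05 (limma F test).

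Other folding genes were described from lists outside the 58. The cytosolic chaperonin TRiC folds actin and tubulin, and prefoldin hands it clients. Of 10 measured genes of these complexes, TCP1, CCT2, CCT3, CCT4 and CCT6A were higher in deficient than in excess pigs at an unadjusted p under 0.05, by 0.33 ± 0.11 to 0.65 ± 0.19, where 2.84% of all probe sets were. The same 5 were without pig 11, by 0.21 (TCP1) to 0.45 (CCT6A), where 2.09% were. Of probe sets with a mean of at least 8, 8.53% were with pig 11 and 5.23% without it. In 6 of the 10 genes every deficient pig lay above every excess pig, against 4.28% of all probe sets. In PFDN4 every deficient pig lay below every excess pig, against 2.19%. Of 13 HSP90 and HSP70 partners, PTGES3, the co-chaperone p23, was 0.50 ± 0.11 higher (0.40 without pig 11) and PPID 0.32 ± 0.13 higher, or 0.25 without pig 11, where PPID missed an unadjusted p of 0.05, and none was lower. The 2 called with all 9 pigs were 15.4% of the list, beside 2.84% of all probe sets and 8.53% of those with a mean of at least 8.

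BAG3, the nucleotide exchange factor that works with HSPB8, was the 1 of 8 such factors (12.5%) called between deficient and excess pigs. Beside it, 2.84% of all probe sets and 8.53% of those with a mean of at least 8 were higher in deficient pigs. BAG3 read 9.51, 9.26 and 9.51 in deficient pigs, 9.53, 8.78 and 9.50 in adequate pigs and 9.12, 8.50 and 8.37 in excess pigs, and every excess pig lay below every deficient pig. The difference of 0.76 ± 0.25 was 0.62 without pig 11 (limma, unadjusted p = 0.0598). Of 13 other chaperones, CALR of the endoplasmic reticulum was higher and the mitochondrial HSP90 TRAP1 lower in deficient than in excess pigs, by 0.23 ± 0.09 and -0.42 ± 0.17. Without pig 11 the differences were 0.14 and -0.57, and CALR missed an unadjusted p of 0.05. With pig 11, CALR and TRAP1 were each 7.69% of the list, where 2.84% of all probe sets were higher and 1.23% lower. CRYAB, the muscle small heat shock protein that the naming rule leaves out, differed by 0.19 ± 0.09 (limma, unadjusted p = 0.0590), and by 0.20 without pig 11. The heat shock factors, which drive transcription of many of these genes, were not called: HSF1 differed by 0.12 ± 0.22 and HSF2 by 0.64 ± 0.35, and without pig 11 by -0.05 and 0.41.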

How the data were processed

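Total RNA from 1 muscle sample of each of 9 pigs was measured on whole-transcript GeneChip arrays. The deposited log2 values are the authors' processed probe-set values; the log base was inferred from their range of 3.10 to 14.30. GCOS 1.2 and Partek are named without a role, per the submitters' processing notes; how background was corrected, probes summarised and arrays normalized is not given in the sources used here. No value column was left out (0 unused). Symbols came from the platform annotation, and 13157 probe sets had 1 symbol.

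A mean per diet was fitted to all 27558 probe sets on 9 arrays with limma 3.58.1 (lmFit and eBayes, R 4.3.3), with two-sided tests and Benjamini-Hochberg adjustment over all probe sets; the fit was tested on simulated data. The number of arrays, 3 pigs per diet, limits the precision: the median SE was 0.127. Genes named with the value of every pig had an unadjusted p under 0.05 or one of the 8 smallest p in a comparison, or represent a role. The genes and lists were chosen with earlier results of these data known. Alternatives were another quantile normalization, median centring, the 6 arrays compared alone, a trend with robust prior, array weights, array SD as covariate, the dimmest 25% left out, probe sets with 1 symbol alone, all probe sets of each gene, and each pig left out. Restriction to a mean of at least 8 was added after the data were examined.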

Additional observations from a re-analysis of the deposited data

How the results depend on the processing

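No gene passed an adjusted p of 0.05 in limma under any alternative. Differences with an unadjusted p under 0.05, or among the 8 smallest p of their comparison, were followed through each alternative. Each of these selected differences kept its direction. Outside this selection, some named genes turned without excess pig 11. For excess minus adequate, HSPA5 went from -0.215 to 0.0039 and HSPA9 from -0.061 to 0.021. Counts at an unadjusted p under 0.05 also moved. For deficient against adequate, the 4 genes became 2 with median centring, 8 with the 6 arrays compared alone, 11 with array weights and 8 with array SD as a covariate, and ranged from 2 (without deficient pig 2) to 10 (without excess pig 11) when 1 pig was left out. For excess against adequate, the 8 genes became 5 with the 6 arrays alone and 4 with array weights, and ranged from 4 (without adequate pig 5) to 16 (without excess pig 9). Its median of -0.13 was -0.0233 with array SD as a covariate, and ranged from -0.19 to -0.0351 (without excess pig 11). For deficient against excess, the 15 genes ranged from 12 to 20, and the median of 0.15 ranged from 0.0515 (without excess pig 11) to 0.23, and was 0.25 among genes with a mean of at least 8. The cause was not tested, beyond fewer arrays or genes entering some fits. Among the differences selected by p or rank, some moved by over 1.5 times in a setting not given above. For deficient against adequate, HSPA9 (0.19) was 0.11 without deficient pig 1. In the same comparison DNAJB9 (-0.19) was -0.29 without adequate pig 6 and -0.12 without adequate pig 7. With array SD as a covariate, HSPA5 was 0.31 and HSPD1 0.34 for deficient against excess. That setting gave -0.19 for DNAJC4 and 0.19 for DNAJC5B for excess against adequate, and array weights gave 0.26 for DNAJC5B. Differences outside the selection could move as well. HSPD1 for excess against adequate went from -0.247 to -0.036 without excess pig 11. No paired analysis was possible because the pig numbers are not shared between diets.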
